A study of Mus musculus with 5 samples.

Results

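The genes described here are the nuclear genes for the subunits of respiratory chain complexes I, III and IV. They were chosen by name: every row of the count table whose mouse Ensembl ID maps to a protein-coding symbol beginning with Ndufa, Ndufb, Ndufc, Ndufs, Ndufv, Uqcr, Cox4, Cox5, Cox6, Cox7 or Cox8, leaving out the Ndufaf assembly factors and pseudogenes. Of 56691 rows, 64 met this rule: 36 for complex I, 8 for complex III and 20 for complex IV, counting Ndufa4 and Ndufa4l2 with complex IV. The rule uses names and no measured value. Another 8 rows carried these prefixes and were left out, 7 as processed pseudogenes and Ndufb1-ps as a row annotated as a long noncoding RNA.

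Messenger RNA was sequenced from keratinocytes of the back skin of mice aged 28 days. In 2 libraries (bulk 1 and bulk 2), labelled WT and epidermal basal cells, the whole basal population was used. In 3 libraries (GFP 1, GFP 2 and GFP 3), labelled Lrig1 positive and epidermal stem cells, the cells had been sorted for GFP. Bulk 1 and GFP 1 share 1 title number, bulk 2 and GFP 2 share another, and GFP 3 has a number of its own. The genotype label (WT or Lrig1 positive) thus differs within each shared number. Genotype label and sorting both go with the group and cannot be told apart. The labels do not say what the number marks, nor whether the libraries came from different mice, so p-values measure the spread between these libraries, which may be partly technical. The sources used here do not name the reporter that drives GFP, the sorting gates or the strain, and no group received a treatment that the labels name.

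The respiratory chain passes electrons from food-derived NADH to oxygen and pumps protons across the inner mitochondrial membrane. Complex I takes electrons from NADH and hands them to ubiquinone, complex III passes them on to cytochrome c, and complex IV uses them to reduce oxygen to water. Their catalytic centres are shared between a few proteins made inside the mitochondrion from mitochondrial DNA and many made from nuclear genes, so both genomes have to supply each complex. Several complex IV subunits exist in alternative forms used by heart, skeletal muscle, lung or testis. In skin, basal keratinocytes are the dividing layer of the epidermis, and Lrig1 marks stem cells of the upper hair follicle.

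Depth ranged from 56829330 to 105887450 counts per library, and levels are given as CPM, a gene's count scaled to a common library size, after TMM scaling, which corrects for differences in library composition. Lrig1 itself was at 163 and 155 CPM in the bulk libraries and at 209.8 (GFP 1), 226 (GFP 2) and 213 (GFP 3) in the sorted ones. The sorted libraries were the higher in each case, with a log2 difference of 0.44 ± 0.18 (SE) that did not pass the test (edgeR adjusted p = 0.292); with the title number as a block it was 0.45 and passed (edgeR adjusted p = 0.00676). The summed level of 10 basal keratinocyte markers was 22570 and 25410 CPM in bulk against 43530, 37530 and 34670 in the sorted libraries, and that of 10 suprabasal markers was 22530 and 17620 against 8952, 12410 and 9097. Xist, the RNA of the inactive X chromosome of female cells, had 53714 counts in GFP 3 and at most 8 in any other library. GFP 3 therefore differs from the rest both in Xist and in having no bulk partner, and these cannot be told apart in what follows.

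Most of these genes were higher in GFP 1 and GFP 2 than in the bulk library of the same title number, by about 1.5-fold, but not in GFP 3. The summed level of the 64 genes was 4780 CPM in bulk 1 and 4050 in bulk 2, and 7466 in GFP 1, 5860 in GFP 2 and 3931 in GFP 3. The sorted libraries thus stood on both sides of the bulk ones. Of the 64 genes, 60 had enough counts to be tested. With the group as the only term in edgeR's quasi-likelihood test, 0 of the 60 were called at an adjusted p of 0.05 in either direction, against 0.145% of the 18583 genes tested called higher and 5.14% called lower. A single gene, Cox4i2, had an unadjusted p under 0.05. limma-voom and DESeq2 also called 0, with 1 gene each at an unadjusted p under 0.05. The log2 difference was above 0 for 59 of the 60, with a median of 0.39 (1.31-fold), beside a median of 0.05 over all genes tested. That median for the chain genes was 0.16 without GFP 1, 0.23 without bulk 2 and 0.58 without GFP 3.

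The 2 same-number pairs were alike in the median ratio and in the count of higher genes, and GFP 3 differed from both. In GFP 1 against bulk 1, 59 of the 60 genes had the higher value in the sorted library, with a median log2 ratio of 0.60 (1.51-fold). In GFP 2 against bulk 2 the count was 57 of 60 and the median 0.53 (1.45-fold). Single genes could differ between the pairs, as Ndufv1 did (0.61 and 0.14) and, the other way, Ndufa4 (0.18 and 0.77). The ratio was above 0 in both pairs for 57 of the 60 genes, as it was for 38.5% of all genes tested. In GFP 3 against the mean of the bulk libraries, 12 of the 60 were higher and the median log2 ratio was -0.15. GFP 3 lay below both bulk libraries for 31 genes, between them for 26 and above both for 3. The order GFP 1, then GFP 2, then GFP 3 held for 57 of the 60. Of all the tested genes of the 3 complexes, 1 (Cox6b2) was higher in each sorted library than in either bulk library and 1 (Cox4i2) was lower, where 14.6% and 18.5% of all tested genes separated in those directions.

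**Figure D1:**
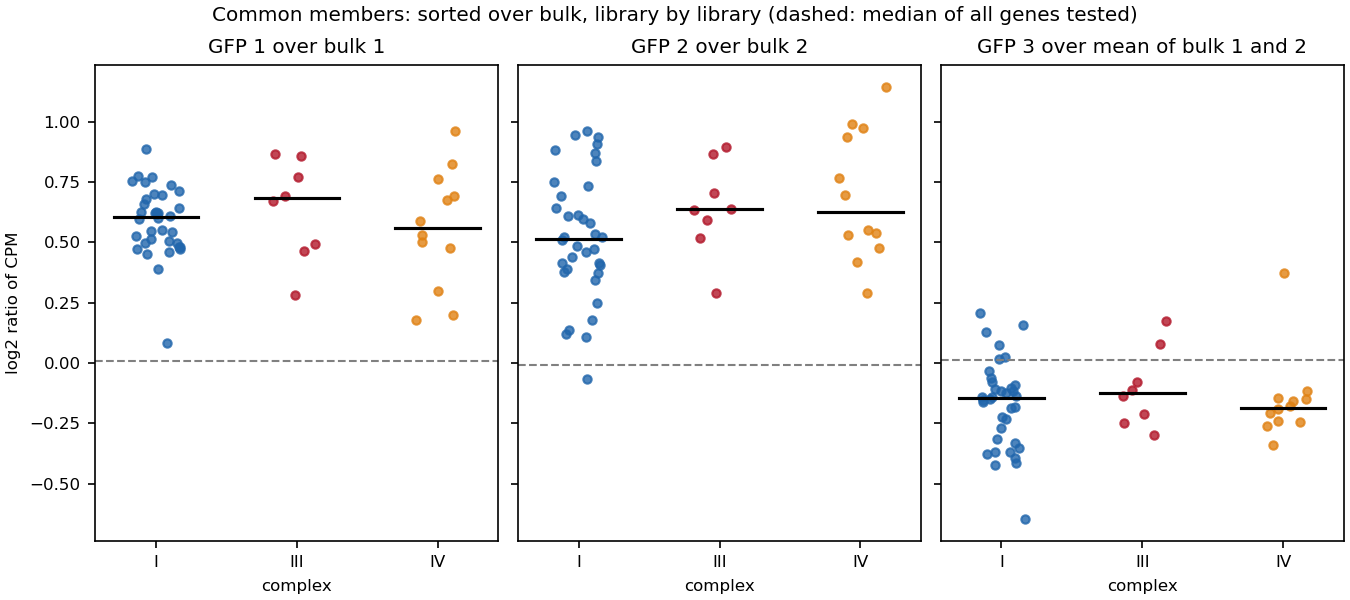
Log2 ratio of CPM for the 56 tested genes other than the tissue-restricted forms, by complex, in each of 3 comparisons of libraries; each point is a gene, black bars are medians and the dashed line is the median of all genes tested. The points of complexes I, III and IV lie above 0 in both same-number pairs, with 1 exception in the second pair, and mostly below 0 for GFP 3.

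When the title number was entered as a replicate block, so that GFP 1 was set against bulk 1 and GFP 2 against bulk 2, 54 of the 60 genes were called higher in the sorted cells and 1 lower. Their median log2 difference was 0.57 (1.49-fold). Of all genes tested, 16.4% were called higher and 19.7% lower by the same rule. By complex, 33 of 36 genes of complex I, 8 of 8 of complex III and 13 of 16 of complex IV were called higher. The 5 that were not called were Ndufs1, Ndufa9, Ndufb7, Cox6b2 and Cox7a1. GFP 3, alone with its number, adds nothing to the difference in this fit. The fit has 1 residual degree of freedom and takes its measure of spread wholly from other genes of like abundance, while the fit without GFP 3 and without the block called 0 genes higher, although 40 of the 60 had an unadjusted p under 0.05. The 54 calls therefore rest on the blocked fit, both on its treating the shared numbers as pairs and on its measure of spread. The parts of these were not tested separately.

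**Figure D2:**
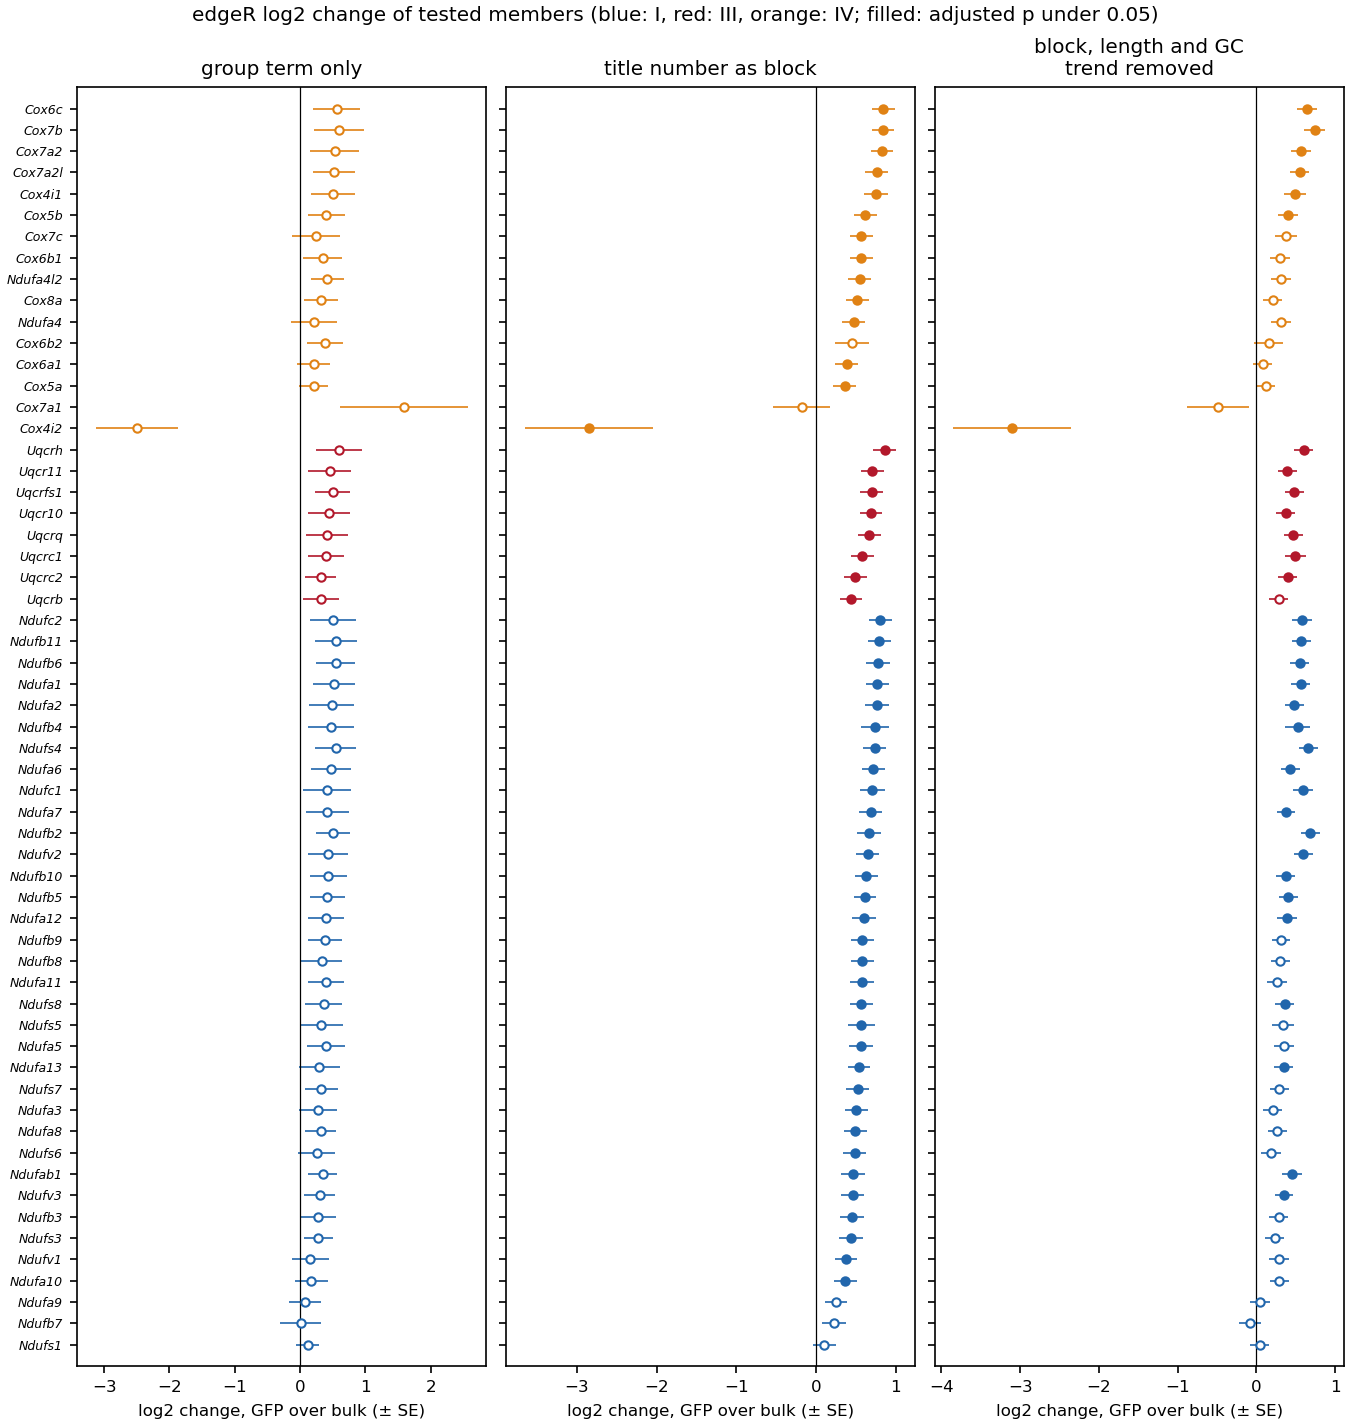
Log2 difference between sorted and bulk cells with its SE for 59 of the 60 tested genes, by complex, in 3 edgeR fits; filled points have an adjusted p under 0.05. None is filled with the group term only, 54 are filled with the replicate block (53 to the right of 0), and 33 once the trend with transcript length and GC content is also removed.

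Within complex I, the 7 core subunits that carry the electron path from NADH to ubiquinone had smaller differences than the accessory subunits in the median. Ndufv1, which binds NADH, was at 95.7 and 108 CPM in bulk 1 and bulk 2 and at 146, 119 and 76.4 in GFP 1, GFP 2 and GFP 3. Ndufv2, an iron-sulphur partner of Ndufv1, was at 78.5 and 52.1 against 115, 86.7 and 61.2. Ndufs1 (ENSMUSG00000025968.17), the largest iron-sulphur subunit, was at 58.4 and 50.6 against 61.8, 54.9 and 60.6. For Ndufv1 and Ndufv2, GFP 1 and GFP 2 exceeded both bulk libraries while GFP 3 did not; for Ndufs1 the 5 values lay within a narrow range and overlapped. Ndufs1 was not called with or without the block, with a blocked log2 difference of 0.10 ± 0.14 (edgeR adjusted p = 0.627), whereas Ndufv2 had 0.64 ± 0.14 (edgeR adjusted p = 4.78e-05) and Ndufv1 0.37 ± 0.14 (edgeR adjusted p = 0.0275). Ndufs3, a core subunit of the arm that reaches into the matrix, was at 40.6 and 40.3 against 57.4, 52.3 and 37.3. Ndufs7, which holds the last iron-sulphur cluster before ubiquinone, was at 46.1 and 41.1 against 66.5, 58.5 and 38.9, and Ndufs8, which carries the pair of clusters before it, at 61.4 and 56.1 against 99.6, 76.0 and 50.3. In these 3, GFP 1 and GFP 2 were above both bulk libraries and GFP 3 was below both. With the block, 6 of the 7 core genes were called higher, at a median log2 difference of 0.44, and 27 of the 29 remaining complex I genes were, at a median of 0.58. With the trend with length and GC content also removed, 2 of the 7 (median 0.29) and 17 of the 29 (0.37) were called higher. Of all genes tested, 14.7% were called higher by that rule.

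The accessory subunits of complex I surround this core and stabilise it. Ndufb8 and Ndufb11, both in the membrane arm, had the highest level per kilobase of transcript in the complex. Ndufb11 was at 111 and 91.9 CPM in bulk and at 205, 148 and 91.7 in GFP 1, GFP 2 and GFP 3. Ndufb8 was at 86.0 and 87.8 against 144.6, 116.5 and 66.1. Both were thus highest in GFP 1, next in GFP 2, and below both bulk libraries in GFP 3. Their blocked log2 differences were 0.79 ± 0.14 for Ndufb11 (edgeR adjusted p = 4.36e-07) and 0.58 ± 0.14 for Ndufb8 (edgeR adjusted p = 0.000309). Ndufb7, a membrane-arm subunit that faces the intermembrane space, was at 32.9 and 33.0 in bulk, 46.7 in GFP 1, 31.5 in GFP 2 and 20.97 in GFP 3, so that only GFP 1 exceeded bulk. Ndufa9, which lies near the ubiquinone site, was at 69.9 and 71.1 against 91.7, 76.6 and 54.5. These 2 had the smallest blocked differences among the accessory subunits, 0.22 ± 0.15 for Ndufb7 and 0.25 ± 0.14 for Ndufa9, and neither passed the edgeR test (adjusted p = 0.257 and 0.163). Over all 36 genes of complex I the blocked log2 difference ran from 0.10 (Ndufs1) to 0.80 (Ndufc2), and 36 of 36 were above 0 also with the group term only. Their summed level was 2033 and 1792 CPM in bulk against 3106, 2469 and 1665.

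All 8 genes of complex III were called higher in the blocked fit. Uqcrh (ENSMUSG00000063882.13), the hinge protein that helps cytochrome c1 meet cytochrome c, was at 178 and 127 CPM in bulk and at 323, 232 and 137 in GFP 1, GFP 2 and GFP 3. Uqcr11, a small accessory subunit, was at 84.0 and 67.1 against 143, 104 and 63.1. Uqcrfs1, the Rieske iron-sulphur protein at the catalytic centre, was at 98.5 and 69.8 against 138.8, 129.9 and 87.6. In each case GFP 1 and GFP 2 exceeded both bulk libraries; GFP 3 fell between the bulk values for Uqcrh and Uqcrfs1 and below both for Uqcr11. Uqcrh had the largest blocked difference among the genes higher in sorted cells, 0.86 ± 0.14 (edgeR adjusted p = 4e-08), or 1.81-fold in the first pair and 1.82-fold in the second. The log2 difference was 0.70 ± 0.14 for both Uqcr11 (edgeR adjusted p = 7.74e-06) and Uqcrfs1 (edgeR adjusted p = 1.05e-05). The smallest in the complex was Uqcrb, at 0.44 ± 0.14. The summed level of the 8 genes was 918 and 789 CPM in bulk against 1494, 1183 and 789 in GFP 1, GFP 2 and GFP 3. A processed pseudogene, Uqcrh-ps2, had at most 12 counts in any library and Uqcrh-ps1 had 0, and the sources used here do not say how the authors' counting shared reads between near-identical copies.

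Complex IV held the most abundant gene of the group. Cox4i1 (ENSMUSG00000031818.13), the common form of a subunit that regulates the enzyme, was at 312 CPM in bulk 1 and 311 in bulk 2 and at 606, 456 and 260.1 in GFP 1, GFP 2 and GFP 3. Per kilobase of transcript it averaged 509 CPM over the 5 libraries, ahead of Cox6a1 at 369 and Uqcrh at 364. The bulk values of Cox4i1 nearly coincided, GFP 1 and GFP 2 lay above them and GFP 3 below. Its blocked log2 difference was 0.76 ± 0.15 (edgeR adjusted p = 4.88e-06). Cox6a1, a supernumerary subunit, was at 199.8 and 186 against 278, 228 and 163, and Cox7b, another, was at 113 and 47.5 against 163, 105 and 94.8. Bulk 1 was thus above GFP 2 and GFP 3 for Cox7b, and the 2 groups overlapped. Cox7a2l, which helps to join complexes III and IV into supercomplexes, was at 121 and 101 against 214, 164 and 99.1. Its blocked difference was 0.76 ± 0.14 (edgeR adjusted p = 1.23e-06), that of Cox7b was 0.84 ± 0.14 (edgeR adjusted p = 7.84e-08) and that of Cox6a1 0.38 ± 0.14 (edgeR adjusted p = 0.0245). All 12 genes of complex IV other than the tissue-restricted forms were called higher with the block, with log2 differences from 0.36 (Cox5a) to 0.84 (Cox6c). Summed over the 20 genes, the level was 1829 and 1469 CPM in bulk against 2867, 2207 and 1477.

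**Figure D3:**
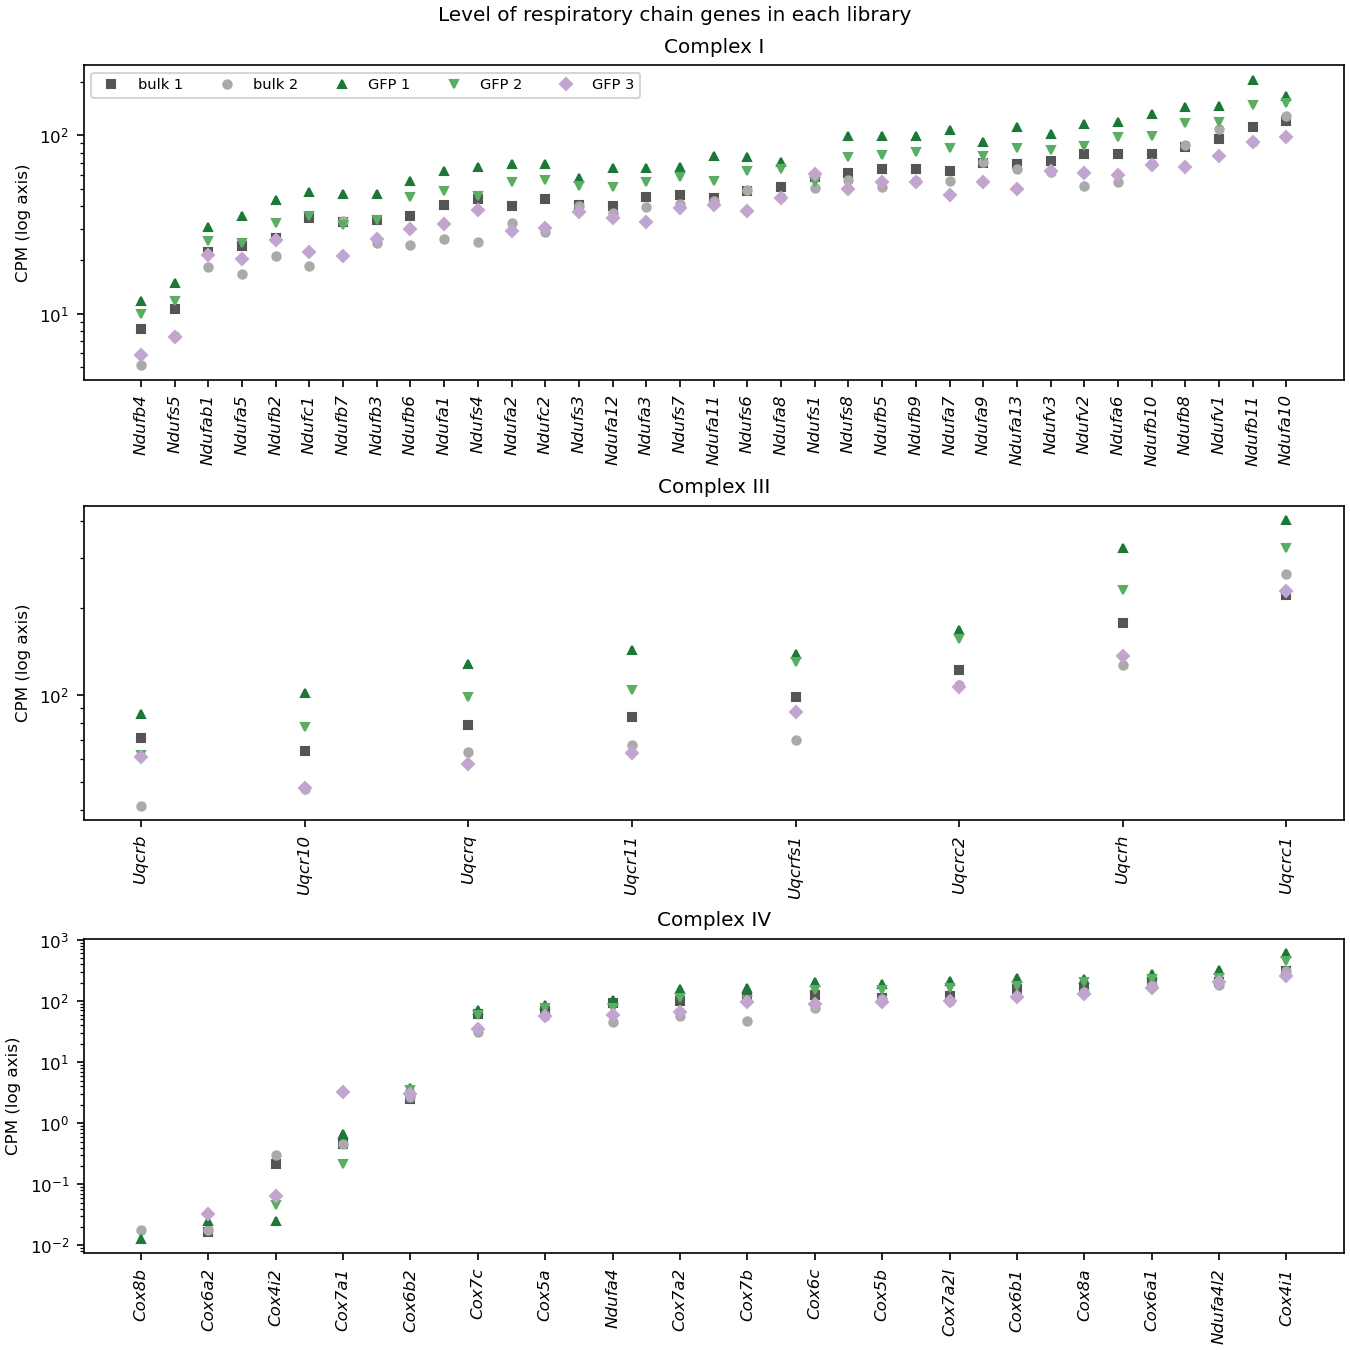
CPM of the genes in each of the 5 libraries on a log axis, genes ordered by mean level within complexes I, III and IV; values of 0 are not drawn, and Cox7b2 and Cox8c, at 0 in every library, are left out, as is 1 gene of complex I. GFP 1 is the highest library for 58 of the 60 tested genes, and the tissue-restricted forms of complex IV other than Ndufa4l2 lie far below their partners.

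The alternative forms of complex IV subunits were almost all scarce, with 1 exception. Ndufa4l2 (ENSMUSG00000040280.11), a paralogue of Ndufa4 known to be induced by low oxygen, was at 202 and 179.7 CPM in bulk and at 324, 239 and 202 in GFP 1, GFP 2 and GFP 3. Ndufa4, which occupies that place in the standard enzyme, was at 93.6 and 45.0 against 105.8, 76.6 and 58.4. Per kilobase of transcript Ndufa4l2 made up 58.5% and 72.3% of the pair in bulk and 66.7%, 67.1% and 69.3% in the sorted libraries, so it was the more abundant of the pair in each of the 5 libraries and its share did not separate the groups. With the block, both were called higher, Ndufa4l2 by a log2 difference of 0.55 ± 0.14 (edgeR adjusted p = 0.000903) and Ndufa4 by 0.47 ± 0.14 (edgeR adjusted p = 0.00417).

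Cox6b2, a form best known from testis, was at 2.51 and 2.73 CPM in bulk and at 3.74, 3.45 and 3.01 in the sorted libraries. It was higher in each sorted library than in either bulk library, yet its log2 difference of 0.38 ± 0.28 was not called (edgeR adjusted p = 0.575), nor was the blocked value of 0.45 ± 0.21 (edgeR adjusted p = 0.0804). Its common partner Cox6b1 was at 159 and 122.5 against 239, 178 and 118, and Cox6b2 made up at most 2.62% of the pair per kilobase in any library. Cox7a1, the heart and skeletal muscle form of Cox7a, was at 0.451 and 0.458 CPM in bulk, 0.671 in GFP 1, 0.211 in GFP 2 and 3.203 in GFP 3. GFP 3 alone was high, and it alone set the highest positive log2 difference among the 60 genes with the group term, 1.59 ± 0.98 (edgeR adjusted p = 0.502); without GFP 3 the value was -0.04. In GFP 3 Cox7a1 made up 7.47% of its pair with Cox7a2 per kilobase. Cox7a2, the form used in other tissues, was at 98.2 and 57.7 against 157, 114 and 66.5. The summed level of 8 skeletal muscle markers was 3.25 CPM in GFP 3, within the range of 3.08 to 4.90 over the other libraries, and that of 7 adipocyte markers was 0.182, the lowest of the 5. Only 4 of the muscle and 3 of the adipocyte markers had enough counts to be tested. Mylpf alone, at 2.54 CPM in GFP 3, made up most of the muscle sum. The part of muscle or fat cells in the Cox7a1 value was not tested.

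Cox4i2 (ENSMUSG00000009876.14), the form of Cox4 best known from lung, went the other way. It had 13 and 34 counts in bulk 1 and bulk 2 and 2, 3 and 6 in GFP 1, GFP 2 and GFP 3, or 0.217 and 0.305 CPM against 0.0253, 0.0453 and 0.0643. The groups did not overlap, but each sorted library had very few counts. The log2 difference was -2.49 ± 0.63 with the group term (edgeR adjusted p = 0.0692) and -2.85 ± 0.80 with the block (edgeR adjusted p = 0.00203), and without GFP 3 it passed the test also without the block. It made up at most 0.102% of its pair with Cox4i1 per kilobase. Markers of several other cell types were lower too, though not of all. With the block, 8 of 8 Langerhans and myeloid, 10 of 10 hair shaft and 6 of 8 endothelial and mural markers were called lower in sorted cells. Of all genes tested, 19.7% were called lower by the same rule. In the endothelial and mural list 1 marker was called higher, and of 4 tested skeletal muscle markers 0 were called in either direction. The summed level of the endothelial and mural list was 9.11 and 8.87 CPM in bulk and 11.3, 7.62 and 3.10 in the sorted libraries. Their part in the Cox4i2 difference was not tested, and in these pooled cells fewer cells of a type and less RNA per cell cannot be told apart. The remaining 4 forms were not tested. Cox6a2 had between 0 and 3 counts per library and Cox8b between 0 and 2, while their partners Cox6a1 and Cox8a were abundant, Cox8a at 160.3 and 141 CPM in bulk and 227, 204 and 132 in the sorted libraries. Cox7b2 and Cox8c had 0 counts in all 5 libraries, which at a floor of 3 counts allows a level of up to 0.0269 to 0.0502 CPM, depending on the library.

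Their promoters were read to show the sequence in front of genes that moved together. Nuclear respiratory chain genes are known targets of NRF1 and of the ETS-family factor GABP, and YY1 binds near the start of many such genes. RefSeq promoters on build GRCm38.p6, 250 bases before to 50 after a gene's start, were at hand for 51 of the 64 genes. Searched on both strands, the NRF1 core GCGCATGC was in 6 of 51 windows (11.8%), beside 5.26% of the 12176 tested genes with a promoter and 3.05% of all 27025. The ETS letters CCGGAAG were in 9 (17.6%), beside 17.8% and 9.93%. The YY1 letters AAGATGG were in 8 (15.7%), beside 7.75% and 7.28%. Apart from a site that began 2 bases before the start, the YY1 letters began 22 to 38 bases after it. They thus lay behind the start rather than in front of it. The NRF1 core overlaps its own reverse complement when the full palindrome is present, and such a pair counts as 1 gene. A match is a run of letters and shows no binding.

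The 130 bases before the start are given for 3 complex I genes with the NRF1 letters. Also given are those of 4 genes described above with the ETS letters (Ndufs3, Uqcrh, Uqcr11 and Cox6a1). The last are those of Ndufb7, which has the ETS letters but was not called in the blocked fit. They run 5′ to 3′ toward the start, and capitals mark the motif on either strand. They lie at chr17:56717632-56717761 (plus strand) for Ndufa11, chr15:82354292-82354421 (minus strand) for Ndufa6, chr2:36049339-36049468 (minus strand) for Ndufa8, chr2:90904722-90904851 (minus strand) for Ndufs3, chr4:116075071-116075200 (minus strand) for Uqcrh, chr10:80406822-80406951 (minus strand) for Uqcr11, chr5:115348959-115349088 (minus strand) for Cox6a1 and chr8:83566628-83566757 (plus strand) for Ndufb7.
Ndufa11: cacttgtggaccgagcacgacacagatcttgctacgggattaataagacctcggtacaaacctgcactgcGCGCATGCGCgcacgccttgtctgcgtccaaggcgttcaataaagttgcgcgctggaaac
Ndufa6: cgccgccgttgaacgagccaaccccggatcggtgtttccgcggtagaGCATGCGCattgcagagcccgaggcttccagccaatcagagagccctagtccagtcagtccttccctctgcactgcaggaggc
Ndufa8: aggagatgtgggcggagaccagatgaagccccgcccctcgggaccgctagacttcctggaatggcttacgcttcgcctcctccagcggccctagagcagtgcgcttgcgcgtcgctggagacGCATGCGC
Ndufs3: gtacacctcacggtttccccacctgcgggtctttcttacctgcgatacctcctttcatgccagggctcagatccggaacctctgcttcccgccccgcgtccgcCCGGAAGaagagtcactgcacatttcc
Uqcrh: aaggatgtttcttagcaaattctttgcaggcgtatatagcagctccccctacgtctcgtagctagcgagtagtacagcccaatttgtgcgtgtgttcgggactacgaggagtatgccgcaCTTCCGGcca
Uqcr11: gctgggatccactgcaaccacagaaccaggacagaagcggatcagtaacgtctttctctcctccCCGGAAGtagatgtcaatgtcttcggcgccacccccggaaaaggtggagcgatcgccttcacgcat
Cox6a1: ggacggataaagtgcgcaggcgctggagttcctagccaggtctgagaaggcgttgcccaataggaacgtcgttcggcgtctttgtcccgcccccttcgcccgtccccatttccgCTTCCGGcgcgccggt
Ndufb7: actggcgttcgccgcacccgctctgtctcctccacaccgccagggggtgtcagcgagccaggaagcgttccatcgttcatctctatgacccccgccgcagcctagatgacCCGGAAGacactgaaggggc

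The letters lay at different distances from the start and on both strands. In Uqcrh, with the largest blocked difference among the genes higher in sorted cells, the ETS letters began 10 bases before the start, in Cox6a1 16, in Ndufb7 20, in Ndufs3 27 and in Uqcr11 66. In Ndufa8 the NRF1 letters began 8 bases before the start, in Ndufa11 60 and in Ndufa6 83. The NRF1 letters were also in Uqcr11, from 4 bases before the start and running across it, and in Cox6a1, as an overlapping pair from 162 and 160 bases before it, and Ndufs3 held the ETS letters again 1 base after the start. These lie wholly or in part outside the printed stretch and are not capitalised there. The blocked log2 differences of Ndufa11 (0.57 ± 0.14), Ndufa6 (0.72 ± 0.14) and Ndufa8 (0.49 ± 0.14) were called, as were those of Ndufs3 (0.44 ± 0.15), Uqcrh, Uqcr11 and Cox6a1. Once the length and GC trend was also removed, Ndufa6, Uqcrh and Uqcr11 were still called, and Ndufa11, Ndufa8, Ndufs3 and Cox6a1 were not (edgeR adjusted p = 0.131, 0.108, 0.158 and 0.673). Ndufb7 holds the same ETS letters and was called in neither fit. When the trend came from the longest transcripts, it was called higher with the block (edgeR adjusted p = 0.0133).

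The genes of mitochondrial DNA did not share the pattern of the nuclear genes. The 13 protein genes of mitochondrial DNA summed to 19820 and 16150 CPM in bulk, 12690 in GFP 1, 11550 in GFP 2 and 20950 in GFP 3. This sum, carried by a few abundant genes, was thus lowest in the libraries in which the nuclear genes were highest. Of the 13, 8 had enough counts to be tested, and these had no common direction. With the group term edgeR called 0 of the 8, and 5 had a log2 difference above 0, with a median of 0.14. In GFP 1 against bulk 1, 1 of the 8 was higher (median log2 ratio -0.52), and in GFP 2 against bulk 2, 4 of the 8 (median 0.02). With the block 1 was called higher and 3 lower. mt-Co1, the catalytic subunit of complex IV, was at 9600 and 9265 CPM in bulk and at 6058, 5262 and 8287 in the sorted libraries. Its blocked log2 difference was -0.74 ± 0.19 (edgeR adjusted p = 0.000721). mt-Nd3, a complex I subunit and the 1 called higher, was at 2.37 and 0.915 CPM in bulk and 2.56, 3.15 and 1.46 in the sorted libraries. With mitochondrial and haemoglobin genes left out of the whole fit, edgeR with the group term called 0 of the 60 nuclear genes. Their median log2 difference was 0.39, as it was with those genes kept. Beyond this fit, the part of the mitochondrial sum in the levels of the nuclear genes was not tested.

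**Figure D4:**
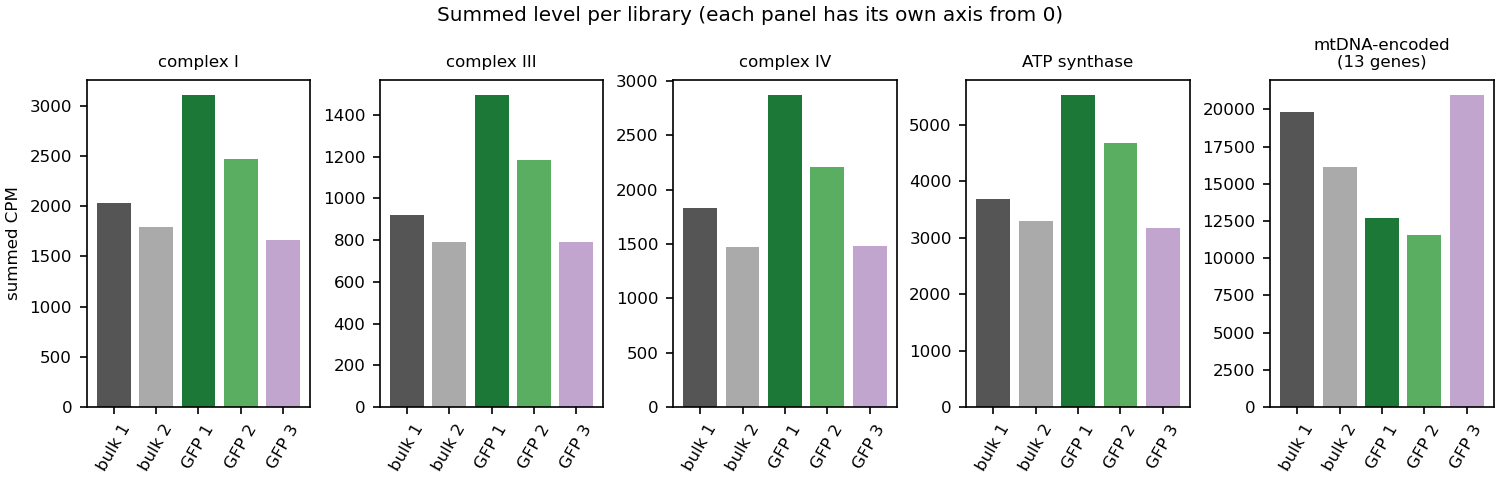
Summed CPM per library of the nuclear genes of complexes I, III and IV, the ATP synthase genes and the 13 genes of mitochondrial DNA, with separate axes that start at 0. GFP 1 and GFP 2 are highest in the 4 nuclear groups and lowest in the mitochondrial one.

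Other nuclear genes of the mitochondrion gave counts of their own. With the group term only, edgeR called 0 of the 179 tested genes of these lists (those of mitochondrial DNA included), and 4 had an unadjusted p under 0.05. With the block, where 16.4% of all tested genes were called higher and 19.7% lower, 17 of 18 tested ATP synthase genes were called higher (median log2 difference 0.63), 3 of 4 of complex II (0.60), which feeds electrons from succinate into the chain, and both of cytochrome c and cytochrome c1 (0.57). Sdhd, the membrane anchor of complex II, was at 55.9 and 40.1 CPM in bulk and at 85.1, 72.4 and 55.9 in the sorted libraries. Cycs, cytochrome c, was at 51.2 and 27.7 against 75.9, 50.3 and 49.95. In both, GFP 1 was the highest library and GFP 3 lay within the bulk range. Mitochondrial ribosome genes were called higher in 44 of 77 (0.40) and citric acid cycle genes in 7 of 13 (0.37). Among genes that assemble the complexes rather than form them, the counts were 4 of 16 for complex I (0.32) and 13 of 28 for complexes III and IV, with 1 lower (0.39). The regulators of mitochondrial biogenesis had 3 of 13 called higher and 1 lower (0.15). The shares of the complex I assembly genes and of the regulators were near that of all genes. Nrf1, 1 of these regulators, was at 30.3 and 32.7 CPM in bulk and 41.5, 44.8 and 38.1 in the sorted libraries, with a blocked log2 difference of 0.45 (edgeR adjusted p = 0.00905). With the group term only, Nrf1 did not pass the test (edgeR adjusted p = 0.347). Each sorted library, GFP 3 included, was above both bulk libraries for 3 of the 13 regulators, Nrf1 and Gabpb1 among them, as for Cox6b2 among the chain genes. Of all genes tested, 14.6% separated in this way. Gabpb1 was at 29.4 and 34.1 CPM in bulk and 37.1, 44.8 and 40.3 in the sorted libraries.

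Most of the chain genes have short transcripts. Their median length was 764 bases, beside 2610 for all tested genes with a length, of which 90.8% were longer than 764. Ndufb2, Ndufab1 and Ndufs1 were the 3 of the 60 with an annotated length above the median of all genes, at 4371, 3479 and 2661 bases. Ndufb2 and Ndufab1 also had the lowest levels per kilobase in complex I, 6.8 CPM each. Whether the transcripts present had these lengths, which the trend fit below used, was not tested. Across all 18107 tested genes with a length, the log2 ratio of libraries fell with length in both same-number pairs. The Spearman rho was -0.32 for GFP 1 over bulk 1, -0.29 for GFP 2 over bulk 2 and -0.03 for GFP 3 over bulk. With GC content it was 0.14, -0.0099 and -0.22 in the same order. Among the 60 chain genes the rho was -0.08, -0.15 and 0.19 with length. It was 0.31, -0.50 and -0.39 with GC content, so the 2 pairs went opposite ways. These are descriptions across genes, which are not independent. The trend fitted to length and GC content in each library placed genes like the chain genes at a median log2 of 0.19 above average in GFP 1, 0.06 in GFP 2 and -0.04 in GFP 3, and at -0.03 in bulk 1 and -0.14 in bulk 2. With that trend removed and the group term only, edgeR called 0 of the 60 genes (of all genes, 0.387% higher and 5.5% lower), with 1 at an unadjusted p under 0.05 and a median log2 difference of 0.20. With the trend removed and the block, 32 were called higher and 1 lower, with a median of 0.37 (of all genes, 14.7% higher and 15.2% lower). By complex, 19 of 36, 7 of 8 and 6 of 16 were called higher.

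Uqcrh (log2 difference 0.60), Ndufb2 (0.69), Cox7b (0.74) and Ndufv2 (0.60) were among those called higher after both steps, and Cox4i1 (0.49) and Uqcrfs1 (0.48) were too. Cox6a1 was at 0.08 and Ndufa4l2 at 0.32, and these did not pass the edgeR test (adjusted p = 0.673 and 0.0683). In all, 22 of the 54 genes called higher with the block were no longer called once the trend was also removed, among them Ndufb8, Ndufv1, Ndufs3, Ndufs7, Ndufa4 and Cox8a (edgeR adjusted p from 0.0799 for Ndufb8 to 0.217 for Cox8a). The weight given to the spread of other genes also differed between these fits (prior degrees of freedom infinite, then 13.8). The fit with the block and the trend from the longest transcripts differed from the last in its transcripts and also in this weight, which was again infinite. The 2 were not told apart. That fit called 47 genes higher. Ndufb8, Ndufs7 and Ndufa4 were among them (edgeR adjusted p = 0.0015, 0.0489 and 0.00188), and Ndufv1, Ndufs3 and Cox8a were not. The part of transcript length in the difference was not tested beyond these values. Ndufb1-ps, the noncoding row left out by the rule, moved like the chain genes, at 54.7 and 29.4 CPM in bulk and 80.9, 63.6 and 33.5 in GFP 1, GFP 2 and GFP 3.

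**Figure D5:**
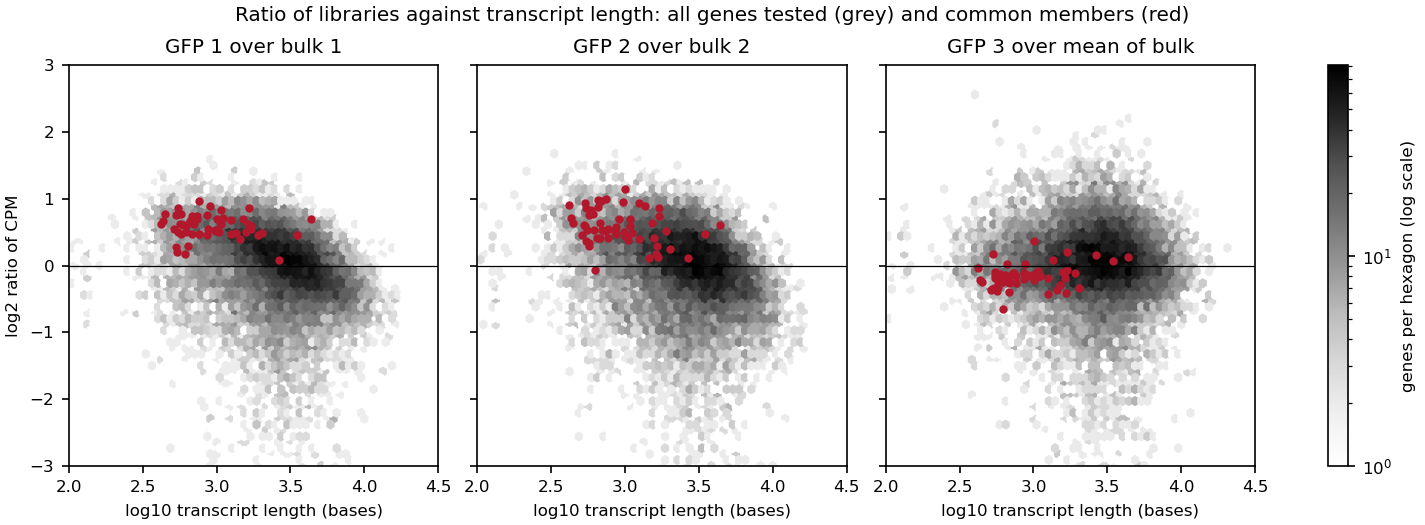
Log2 ratio of CPM against the log10 of transcript length for all genes tested (grey, darker where more genes fall, ratios beyond 3 in either direction not shown) and for the 56 common chain genes (red), in 3 comparisons of libraries. Most chain genes lie at the short end, where the ratios of all genes also run above 0 in the same-number pairs but not for GFP 3.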

How the data were processed

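The authors deposited 1 table of unnormalized counts (whole numbers) for each versioned Ensembl gene ID, 1 column a library. The submitters' processing notes name STAR and build GRCm39, without a version. The counting tool, annotation release and library strandedness were not given in the sources used here. Symbols and biotypes came from GENCODE M21 by ID without version (52073 of 56691 IDs matched). Transcript length and GC content came from its principal transcripts.

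Counts were tested in R 4.3.3 with edgeR 4.0.16 (quasi-likelihood test, TMM scaling, filterByExpr with a minimum count of 10 and total of 15). The group was the only term, and p-values were Benjamini-Hochberg adjusted over all 18583 genes. The test with the group term only and the trend removal were tried on simulated data. The blocked fits were not tried in this way. Alternatives used DESeq2 1.42.0, limma 3.58.1, other scalings and filters, a replicate block, and removal of a per-library loess trend (span 0.3) on length and GC content. Library ratios are log2 of CPM plus 0.1. The title number was taken as a block because bulk and GFP libraries share it. The labels do not state that it marks a mouse, and the genotype labels differ within each shared number. The bulk 1 minus bulk 2 and GFP 1 minus GFP 2 differences correlated at r = 0.52 across genes.

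Members and gene lists were chosen with earlier results of these data known. Genes named with all values were the 3 largest and 3 smallest differences, the 2 most abundant per kilobase in each complex, the complex I core, Uqcrfs1, Cox7a2l, the tissue-restricted forms with their partners, any called gene if 10 or fewer (otherwise 5 in each direction), and up to 2 genes of each other list; 1 gene of the core is not reported here by name. Genes outside this rule (Ndufa6, Ndufa8, Ndufa11, Ndufb2, Ndufc2, Uqcrb, Cox5a, Cox6c and Ndufb1-ps) were named after their values were seen. Promoter sequences are RefSeq's and match by symbol; 13 genes of the group had no entry, and 46 of the 51 windows ended in bases found in a transcript of the gene.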

Additional observations from a re-analysis of the deposited data

How the results depend on the processing

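With the group term only, edgeR called 0 of the chain genes under RLE, upper quartile and library size scaling, the robust fit and a minimum of 1 CPM in 2 libraries, as did DESeq2 and limma-voom. The count was also 0 in edgeR with mitochondrial and haemoglobin genes left out. Without a filter on low counts 1 was higher (Cox7a1) and 1 lower (Cox4i2). Each of these fits had 0 or 1 chain genes at an unadjusted p under 0.05, other than the unfiltered one with 14. Leaving out 1 library at a time gave 0 higher and 0 to 1 lower (1, Cox4i2, without GFP 3), a median log2 difference of 0.16 (without GFP 1) to 0.58 (without GFP 3), and 0 to 1 genes higher among the other mitochondrial lists. The median over all alternatives stayed above 0. With the replicate block, 54 chain genes were higher and 1 lower, and 94 genes of the other lists were higher and 5 lower (of 179 tested); removing the length and GC trend too, the counts were 32 and 1, and 62 and 2. In fits added after seeing the data, the block gave 54 and 1 (93 and 5 for the other lists) under RLE scaling, 51 and 1 (85 and 5) under upper quartile scaling, 36 and 1 (52 and 11) under library size scaling, and 47 and 1 (78 and 3) with the trend taken from the longest transcripts. Library size scaling moved the blocked median of all genes to -0.18, and that of the chain genes to 0.39.

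Some named genes changed sign, all but Cox7a1 (1.59 in the fit with the group term) from log2 values of at most 0.21; the cause was not tested. Ndufb7 was -0.0081 with upper quartile scaling, -0.14 with library size, -0.074 with limma-voom, -0.0042 without a filter, -0.031 with the 1 CPM minimum, -0.24 with the trend removed, -0.082 with trend and block and ranged from -0.33 without GFP 1 to 0.24 without GFP 3. With the trend from the longest transcripts it was 0.18. Adding the block to that fit gave 0.39, which was called higher (edgeR adjusted p = 0.0133). Ndufa9 was -0.063 with library size scaling, -0.11 with the trend removed (-0.087 from longest transcripts) and ranged from -0.11 without GFP 1 to 0.25 without GFP 3. Ndufs1 was -0.0028 with library size scaling and -0.083 with the block added. Cox6a1 was -0.029 with the trend removed (-0.040 from longest transcripts), Ndufa4 ranged from -0.23 without bulk 2 to 0.84 without bulk 1 (-0.038 without GFP 1), and Ndufv1 from -0.063 without GFP 1 to 0.37 without GFP 3. Cox7a1 was -0.18 with the replicate block (-0.18, -0.20 and -0.36 under RLE, upper quartile and library size scaling), -0.49 with trend and block (-0.47 from longest transcripts) and ranged from -0.036 without GFP 3 to 2.09 without GFP 2. Every sorted library has at most 6 counts of Cox4i2, which limits its precision.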
